A study of Mus musculus with 10 samples.

Results

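Trisomy of human chromosome 21 raises the dosage of genes that lie, in the mouse, on 3 different chromosomes. The largest block of orthologs is on chromosome 16, and smaller blocks are on chromosomes 17 and 10. The Dp1Tyb mouse carries an extra copy of the chromosome 16 block, from Lipi to Zbtb21, whereas the orthologs on chromosomes 10 and 17 keep 2 copies, as in wild-type (WT) mice. The genes described here are 41 orthologs of human chromosome 21 genes from these last blocks, chosen by name and by position, out of 43629 genes in the count table. All 41 were found by their Ensembl gene ID. There were 27 on chromosome 10, from Prmt2 to Cstb (GRCm38 positions 76207222 to 78427622, a span of 2.22 Mb), and 14 on chromosome 17, from Umodl1 to Rrp1b (positions 30954640 to 32062865, a span of 1.11 Mb). All 41 are annotated as protein coding.

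RNA was sequenced from the whole hippocampus of 5 Dp1Tyb and 5 WT male littermates of 18 weeks by their labels, with 1 library per mouse. The Dp1Tyb genotype is Dp(16Lipi-Zbtb21)1TybEmcf, and mice of both genotypes had the strain C57BL/6J.129P2, which the study backcrossed to C57BL/6J. The groups were formed by this genotype, and other differences between their libraries are given below. The question was whether orthologs without an extra copy changed in the presence of the 3-copy genes. Among the products of these 41 genes are calcium-binding and channel proteins, collagens, glycolytic and amino acid enzymes, RNA-editing and splicing factors, and proteins of ribosome assembly, the centrosome and the cilium. In the brain, S100b is best known as a protein of astrocytes, and Cbs makes cystathionine from homocysteine and serine and is a source of hydrogen sulphide. People with trisomy carry these genes in 3 copies, which Dp1Tyb mice do not.

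Total counts ranged from 18227684 to 43692270 per library. The labelled tissue was checked on 8 markers of hippocampal neurons, whose summed level was between 2050 and 2310 CPM (counts scaled by library size and TMM factors) in all 10 mice. Slc17a7 gave the most to this sum, which does not show whether single markers were even. None of the 8 was called between the genotypes. An unadjusted p under 0.05 (edgeR) was reached by 4 of them (50%), 2 higher and 2 lower in Dp1Tyb, against 14.4% over all tested genes. The libraries differed in choroid plexus RNA, which comes from the tissue beside the hippocampus: the summed level of 10 markers, Ttr among them, was 805 to 8250 CPM in WT and 188 to 5670 CPM in Dp1Tyb, lowest in Dp1Tyb replicates 1 and 4 and WT replicate 2. All 10 had a mean below WT in the fit, and none passed the test of the genotypes (edgeR quasi-likelihood test, adjusted over all genes). Clic6 and Kcne2 among them lie in the chromosome 16 block with 3 copies in Dp1Tyb. Their log2 fold changes were -0.40 and -0.43, against -1.20 to -0.87 for the others. The covariate used below was the mean of all 10, these included. For S100b, Prmt2, Cbs, Col6a1, Col18a1, Rsph1 and Slc19a1 the values without the 3 libraries lowest in choroid plexus markers are given too. Of 5 blood markers all had values below 0, with a median log2 fold change of -0.43, and 1 (20%) had an unadjusted p under 0.05 (edgeR). Among 6 endothelial markers 5 had values below 0 and 1 above, with a median of -0.1, and 3 (50%) had such a p, all lower. No marker of these 2 lists was called. In whole tissue, fewer cells of a type and less RNA per cell cannot be told apart.

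Of the 41 genes, 39 had enough counts to be tested. The 2 others were Ftcd, a liver enzyme of histidine breakdown, with 0 to 6 counts per library, and Hsf2bp, a meiotic recombination factor, with 3 to 17 counts. Of the 39, 2 (5.13%) were significantly differentially expressed (edgeR, adjusted p under 0.05). S100b was higher in Dp1Tyb and Cbs was lower. Over all 17237 tested genes 1.11% were called, 0.87% as higher and 0.238% as lower. Outside the duplicated segment the share called was 0.718%. A total of 6 of the 39 had an unadjusted p under 0.05 (S100b, Prmt2, Pfkl and Trpm2 higher, Cbs and Pcnt lower), or 15.4%, where the share over the whole table was 14.4%. The log2 fold change (log2FC) of Dp1Tyb against WT had a median of -0.013 over the 39, with 16 values above 0 and 23 below, and of -0.0041 over all tested genes. The median size, regardless of sign, was 0.083 for the 39 and 0.086 over all genes. By these counts the 39 genes were close to the background, apart from S100b and Cbs.

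The duplicated segment of chromosome 16 gave the scale of a copy-number change in the same libraries. Of its 114 tested genes 68 were called, all of them higher, and the median log2FC of the 114 was 0.53, against -0.0014 for the 26 tested orthologs on chromosome 10 and -0.022 for the 13 on chromosome 17. For each gene a 95% interval of its fold change was computed from the same fit, without adjustment over genes. The upper bound was under 1.5-fold in 37 of the 39 orthologs, or 94.9%, in 89.5% of all tested genes and in 19 of the 114 duplicated genes. The 2 orthologs whose interval reached 1.5-fold were Col6a1, which differed widely between mice, and Ubash3a, a regulator of T cell signalling with 11 to 49 counts per library. In 23 of the 39 both bounds lay within 1.2-fold of no change.

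**Figure D1:**
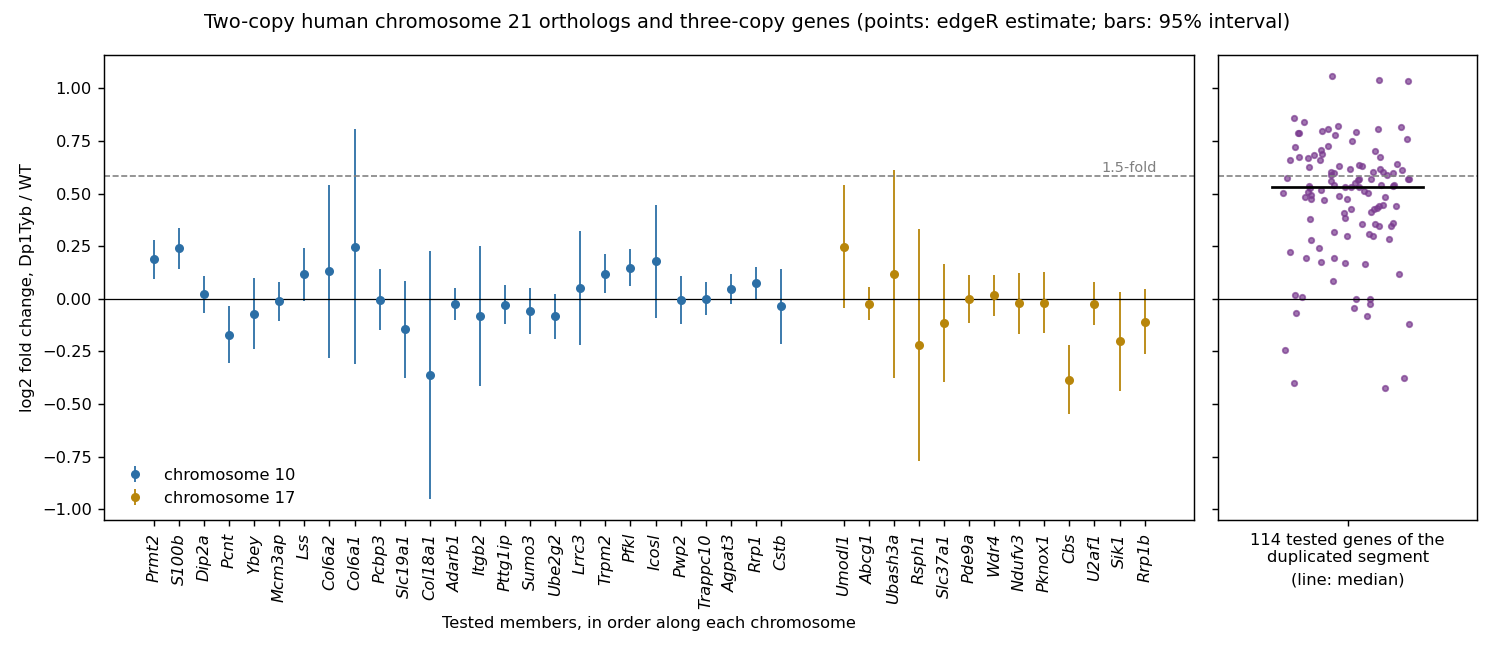
Left, log2FC of Dp1Tyb against WT (y axis) for the 39 tested orthologs in their order along chromosomes 10 and 17, with bars for the 95% interval; right, the 114 tested genes of the duplicated segment, with a line at their median of 0.53. The dashed line is 1.5-fold; all but Col6a1 and Ubash3a have their interval below it, and Prmt2 and S100b, next to each other, lie above 0.

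S100b encodes a calcium-binding protein of astrocytes (ENSMUSG00000033208, chromosome 10, positions 76253853 to 76261159, plus strand). Its level in the WT mice, replicates 1 to 5, was 82.1, 86.1, 79.2, 76.7 and 83.0 CPM. In the Dp1Tyb mice it was 99.9, 97.9, 100.9, 89.4 and 92.7 CPM. Every Dp1Tyb mouse thus lay above every WT mouse. The mean level was 81.4 ± 3.60 CPM in WT and rose to 96.2 ± 4.94 CPM (SD, n = 5 mice each), a log2FC of 0.24 ± 0.045 SE (edgeR, adjusted p = 0.0193). This is 1.18-fold, with a 95% interval from 1.11-fold to 1.26-fold, below the 1.5-fold that 3 copies against 2 would give. The call was near the threshold: leaving out WT replicate 3 or 4, or Dp1Tyb replicate 1, 2 or 3, raised the adjusted p to between 0.0513 and 0.0658 in edgeR, with log2FC values of 0.22 to 0.23. The end of the S100b locus overlaps the span of Dip2a on the other strand, but no exon bases are shared, and Dip2a, of the DIP2 protein family, had a log2FC of 0.02 ± 0.041 SE (adjusted p = 0.85). Without the 3 libraries low in choroid plexus markers, the value for S100b was 0.27 ± 0.049 SE (adjusted p = 0.0302).

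The 6 markers of astrocytes read beside S100b did not move one way: 3 had values above 0 and 3 below, with a median log2FC of 0.048. Their summed level was 1220 to 1350 CPM in WT and 1360 to 1460 CPM in Dp1Tyb, a sum made up mostly of Slc1a3 and Gfap, whereas the mean of their log2(CPM + 0.1) overlapped, at 7.03 to 7.14 in WT and 7.04 to 7.18 in Dp1Tyb. Of the 6, Gfap, an intermediate filament of astrocytes, was called, with a log2FC of 0.26 ± 0.047 SE (edgeR, adjusted p = 0.0167). The water channel Aqp4 had a value of 0.22 ± 0.055 SE (edgeR, adjusted p = 0.0721), and Slc1a3 had 0.11 ± 0.047 SE (adjusted p = 0.33). Aldh1l1, Fgfr3 and Gjb6 had values of -0.01, -0.17 and -0.18. An unadjusted p under 0.05 was reached by 4 of the 6 (66.7%), 3 of them higher and 1 lower, against 14.4% over all tested genes. The 6 oligodendrocyte markers had a median log2FC of 0.079, with 5 values above 0 and 1 below, and none was called. Their mean log2(CPM + 0.1) was lowest in WT replicate 4 (8.51) and Dp1Tyb replicate 4 (8.53). These mice also had the lowest S100b of their genotype, but Dp1Tyb replicate 1, at 8.77 for the markers, had 99.9 CPM of S100b. The parts of astrocyte and oligodendrocyte number in the S100b value were not tested. Of 5 other S100 genes, none passed the test (edgeR, adjusted p from 0.537 to 0.979), with log2FC between -0.0087 and 0.17.

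Prmt2, a protein arginine methyltransferase that acts as a transcriptional coactivator, is the gene next to S100b (ENSMUSG00000020230, chromosome 10, positions 76207222 to 76237865, minus strand). The WT mice had 61.4, 60.8, 62.7, 60.3 and 59.97 CPM. The Dp1Tyb mice had 67.3, 66.6, 67.8, 76.5 and 69.2 CPM. Here too the genotypes did not overlap, and replicate 4 was the highest Dp1Tyb mouse by a wide gap. The log2FC was 0.19 ± 0.043 SE, just outside the threshold (edgeR, adjusted p = 0.0574). It passed in 1 of 17 alternatives, DESeq2 (adjusted p = 0.0103). Without Dp1Tyb replicate 4 the log2FC was 0.15 ± 0.034 SE (edgeR, adjusted p = 0.0802). With the choroid plexus markers as a covariate it was 0.17 ± 0.048 SE (adjusted p = 0.159). Without the 3 libraries low in these markers it was 0.15 ± 0.045 SE (adjusted p = 0.261). With S100b and Cbs, Prmt2 was 1 of 3 orthologs among the 39 without overlap (7.69%). The share was 3.68% over the whole table of tested genes and 3.29% outside the duplicated segment.

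Cbs, cystathionine beta-synthase, was the called ortholog with a decrease (ENSMUSG00000024039, chromosome 17, positions 31608894 to 31637238, minus strand). It opens the transsulphuration pathway, in which homocysteine is turned into cysteine. The WT mice had 39.5, 37.0, 33.2, 33.5 and 30.03 CPM. The Dp1Tyb mice had 26.5, 26.5, 24.2, 29.96 and 25.5 CPM. The genotypes did not overlap, but the lowest WT and the highest Dp1Tyb mouse were almost equal. The mean fell from 34.6 ± 3.66 to 26.5 ± 2.13 CPM (SD, n = 5 mice each), a log2FC of -0.39 ± 0.076 SE (edgeR, adjusted p = 0.0277). This is 0.766-fold, with a 95% interval from 0.683-fold to 0.858-fold. Leaving out WT replicate 1, 2 or 4, or Dp1Tyb replicate 1, 2, 3 or 5, raised the adjusted p to between 0.0544 and 0.0809, with log2FC values of -0.40 to -0.33. With the choroid plexus markers as a covariate the value was -0.46 ± 0.070 SE (edgeR, adjusted p = 0.00251), and without the 3 libraries low in these markers it was -0.43 ± 0.088 SE (adjusted p = 0.0577).

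Other genes of sulphur amino acid and folate metabolism were read beside Cbs. None of 10 passed the test; 1 of them, Folr1, is also among the choroid plexus markers. Cth, named here after its values were seen because it encodes the enzyme after Cbs in the pathway, was low, with 3.16 ± 0.602 CPM in WT against 3.47 ± 0.421 CPM in Dp1Tyb (SD, n = 5 mice each), a log2FC of 0.14 ± 0.14 SE (edgeR, adjusted p = 0.687). Slc19a1, the reduced folate carrier and an ortholog of the same set, had 21.3 ± 3.08 CPM in WT and 19.3 ± 2.35 CPM in Dp1Tyb (log2FC -0.14 ± 0.11 SE, adjusted p = 0.556). Slc19a1 was lowest in the 3 libraries low in choroid plexus markers, at 16.5 CPM in WT replicate 2 and at 16.6 and 18.1 CPM in Dp1Tyb replicates 1 and 4. Without these libraries its log2FC was -0.13 ± 0.085 SE, and with the markers as a covariate it was -0.0052 ± 0.080 SE (edgeR, adjusted p = 0.989). Without WT replicate 2 it was -0.23, and without WT replicate 4 or Dp1Tyb replicate 1 it was -0.096 and -0.093.

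The 250 bases before the RefSeq start of S100b, Prmt2 and Cbs (GRCm38.p6) are given below. These are the 3 orthologs without overlap between the genotypes. S100b and Prmt2 are neighbours with higher means in Dp1Tyb, of which S100b alone was called. RefSeq windows were matched for 31 of the 41 symbols. Capitals mark 3 motifs, searched on both strands: the GC box GGGCGG, the CCAAT box CCAAT and the TATA box TATAAA. These windows are chr10:76253586-76253835 (plus strand), chr10:76237866-76238115 (minus strand) and chr17:31637206-31637455 (minus strand), each written 5′ to 3′ on the strand of its gene.
S100b: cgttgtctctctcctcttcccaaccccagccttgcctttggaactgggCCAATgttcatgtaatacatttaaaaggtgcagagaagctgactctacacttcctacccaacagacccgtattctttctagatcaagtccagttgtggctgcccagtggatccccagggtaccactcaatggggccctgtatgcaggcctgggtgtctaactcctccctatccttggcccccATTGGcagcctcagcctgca
Prmt2: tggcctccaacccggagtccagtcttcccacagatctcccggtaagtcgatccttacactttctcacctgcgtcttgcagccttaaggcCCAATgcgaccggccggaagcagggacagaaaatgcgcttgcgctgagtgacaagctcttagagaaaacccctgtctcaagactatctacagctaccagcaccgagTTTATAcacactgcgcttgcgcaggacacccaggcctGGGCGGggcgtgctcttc
Cbs: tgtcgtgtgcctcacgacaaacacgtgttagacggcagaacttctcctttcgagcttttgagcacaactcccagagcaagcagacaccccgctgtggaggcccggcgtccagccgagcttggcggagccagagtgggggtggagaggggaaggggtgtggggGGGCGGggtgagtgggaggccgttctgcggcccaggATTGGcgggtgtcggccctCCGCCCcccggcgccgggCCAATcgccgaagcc
The S100b window had 2 CCAAT boxes and only 2 CpG dinucleotides. That of Prmt2 had 1 match of each motif and 14 CpG dinucleotides, and that of Cbs had 2 GC boxes, 2 CCAAT boxes and 21 CpG dinucleotides. Over all 32851 windows of this length, 32.7% held a GC box, 33.8% a CCAAT box and 12.4% a TATA box, and the median number of CpG dinucleotides was 6. The windows of the neighbours S100b and Prmt2 thus both held a CCAAT box and differed in GC box, TATA box and CpG dinucleotides. Any part of these windows in the levels was not tested. The matches describe the letters and no binding was measured.

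**Figure D2:**
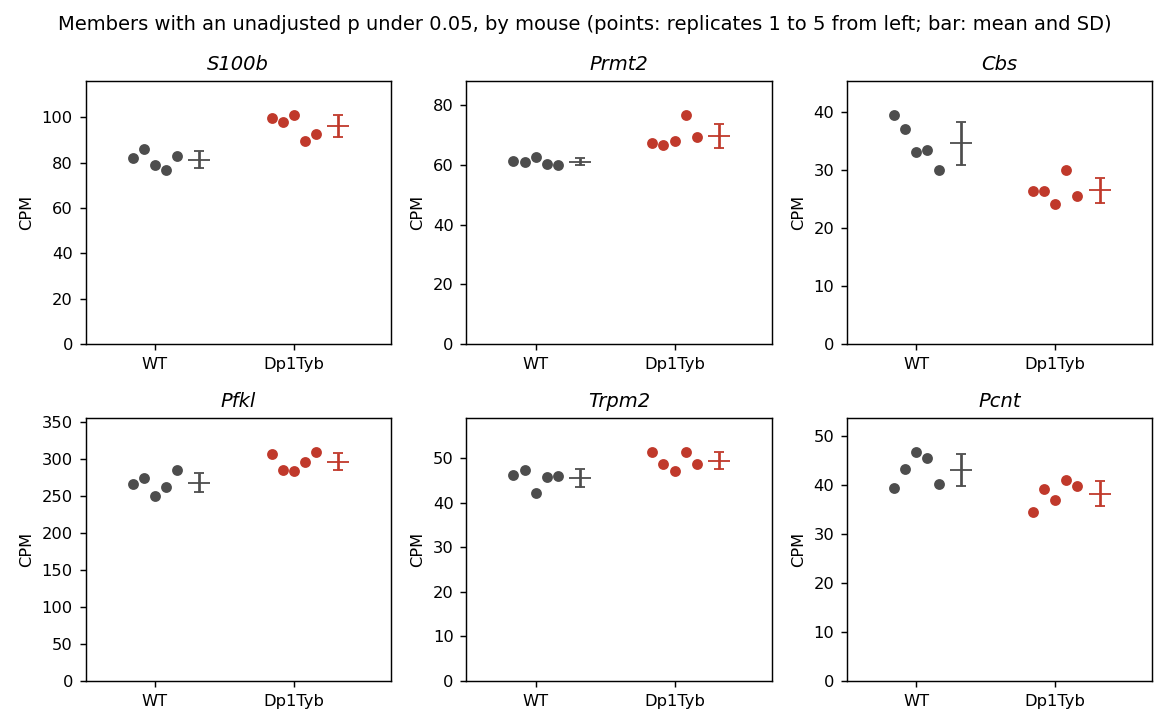
CPM (y axis, from 0) of the 6 orthologs with an unadjusted p under 0.05 in each WT and Dp1Tyb mouse, with the mean and SD at the right of each group. S100b and Prmt2 have all Dp1Tyb mice above all WT mice, Cbs has all of them below, at 29.96 against 30.03 CPM for the closest pair, and the other 3 overlap.

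Among the channels, transporters and signalling proteins, 8 orthologs were tested, of which S100b alone was called. Trpm2, a calcium-permeable channel opened by ADP-ribose and oxidative stress, had 46.3, 47.3, 42.1, 45.9 and 46.1 CPM in WT and 51.4, 48.7, 47.2, 51.3 and 48.8 CPM in Dp1Tyb. Its samples overlapped by 1 mouse of each genotype, and the log2FC was 0.12 ± 0.044 SE (edgeR, adjusted p = 0.244). Pde9a, a phosphodiesterase specific for cyclic GMP, had 16.96 ± 0.438 CPM in WT against 16.95 ± 0.671 CPM in Dp1Tyb (SD, n = 5 mice each). This was the smallest difference among the 39, with a 95% interval of the log2FC from -0.12 to 0.11. Abcg1, a sterol exporter, had 64.6 and 63.5 CPM (log2FC -0.02 ± 0.036 SE). The kinase gene Sik1, which is induced by cyclic AMP and by neuronal activity, had 8.29 ± 1.01 and 7.21 ± 0.919 CPM (log2FC -0.20 ± 0.11 SE, adjusted p = 0.423). Slc37a1, a sugar phosphate transporter, and Ubash3a were low, at 6.56 and 0.828 CPM in WT.

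Of 6 tested orthologs for metabolic enzymes and mitochondrial proteins, Cbs was called. Pfkl, the liver-type phosphofructokinase of glycolysis (ENSMUSG00000020277, chromosome 10, positions 77986947 to 78010083, minus strand), had 265.9, 274.3, 250.1, 262.1 and 284.5 CPM in WT. In Dp1Tyb it had 306.9, 285.3, 283.2, 295.8 and 309.0 CPM. The highest WT mouse lay above the lowest Dp1Tyb mouse only. The log2FC was 0.15 ± 0.041 SE (edgeR, adjusted p = 0.119), and DESeq2 alone among 17 alternatives called it (adjusted p = 0.0488). The muscle-type gene Pfkm had 382.1 ± 12.4 CPM in WT and 426.1 ± 25.6 CPM in Dp1Tyb, a log2FC of 0.16 ± 0.044 SE (adjusted p = 0.122), and the platelet-type gene Pfkp had 0.05 ± 0.040 SE (adjusted p = 0.571).

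Lss, which encodes the synthase that makes lanosterol, had 39.8 ± 3.57 CPM in WT against 43.1 ± 1.43 CPM in Dp1Tyb (SD, n = 5 mice each; log2FC 0.12 ± 0.059 SE, adjusted p = 0.392 in edgeR). All 6 sterol synthesis genes read beside it had values above 0, with a median log2FC of 0.16. An unadjusted p under 0.05 was reached by 3 of the 6 (50%), against 14.4% over all tested genes. In 2 (33.3%) the genotypes did not overlap, against 3.68% over all tested genes. Only Hmgcs1, which makes the precursor of mevalonate, was called, with a log2FC of 0.26 ± 0.050 SE (edgeR, adjusted p = 0.0219). Its adjusted p rose to between 0.058 and 0.0725 without Dp1Tyb replicate 1, 2 or 3, to 0.0525 with the choroid plexus covariate and to 0.167 without the 3 libraries low in choroid plexus markers, with log2FC values of 0.24 to 0.26. Agpat3, an acyltransferase of phospholipid synthesis, had 268.5 ± 7.55 and 277.2 ± 7.71 CPM, a log2FC of 0.05 ± 0.033 SE. Ndufv3, a subunit of complex I, had 45.8 ± 2.89 and 45.1 ± 4.22 CPM (log2FC -0.02 ± 0.067 SE).

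None of the 9 orthologs for RNA processing and ribosome assembly was called or had an unadjusted p under 0.05, and their log2FC values ran from -0.11 to 0.073. Adarb1, the deaminase that edits the glutamate receptor transcript Gria2, was abundant and even between the mice, with 215.6 ± 6.77 CPM in WT against 212.1 ± 7.35 CPM in Dp1Tyb (SD, n = 5 mice each). Its 95% interval ran from 0.933-fold to 1.04-fold. U2af1, the splicing factor that recognises the end of the intron, had 31.4 ± 1.03 and 30.9 ± 1.41 CPM, and Wdr4, a subunit of a tRNA methyltransferase, had 26.7 ± 0.809 and 27.0 ± 0.789 CPM. Rrp1, of ribosomal RNA processing, had 274.4, 290.0, 273.9, 268.6 and 281.6 CPM in WT and 307.2, 301.7, 284.8, 289.0 and 277.8 CPM in Dp1Tyb. The genotypes overlapped, and the log2FC was 0.07 ± 0.037 SE (edgeR, adjusted p = 0.385). Its paralog Rrp1b on chromosome 17 had -0.11 ± 0.072 SE (adjusted p = 0.512). Pcbp3, a poly(C)-binding protein, Pwp2, of small ribosomal subunit assembly, Mcm3ap, of mRNA export, and Ybey, a mitochondrial RNase, had log2FC values from -0.071 to -0.0041. Ybey and Mcm3ap share 188 exon bases on opposite strands, and Hsf2bp and Rrp1b share 54, so their counts depend on whether strand was used.

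The 7 orthologs of the extracellular matrix and adhesion had the largest median SE of the groups by role, 0.15 against 0.047 to 0.08, and none was called. Outside this group, Rsph1 and Ubash3a had an SE of 0.26 and 0.23, above all of the 7 except Col6a1 and Col18a1. Col6a1, a chain of collagen VI, had 25.15, 25.04, 37.5, 43.4 and 64.8 CPM in WT and 47.8, 30.03, 40.5, 70.3 and 42.7 CPM in Dp1Tyb. It ranged over more than the difference between the genotypes within each of them (log2FC 0.25 ± 0.26 SE, edgeR, adjusted p = 0.691). Without Dp1Tyb replicate 4 the value was 0.043, without WT replicate 5 it was 0.50, without WT replicate 1 or 2 it was 0.12, and without the 3 libraries low in choroid plexus markers it was -0.18. Col6a2, the neighbouring gene for another chain, had 9.64, 10.1, 15.3, 15.4 and 17.95 CPM in WT and 17.7, 10.6, 12.1, 18.9 and 14.9 CPM in Dp1Tyb. The summed level of 7 fibroblast markers was 110 to 181 CPM in WT and 135 to 165 CPM in Dp1Tyb, and its part in these values was not tested. In both collagen VI genes Dp1Tyb replicate 4 was the highest mouse and WT replicates 1 and 2 were the lowest. Of 5 other genes for collagen VI chains and for the Col18a1 relative Col15a1, outside these segments, none was called, and the median log2FC was 0.34. An unadjusted p under 0.05 was reached by 3 of them (60%), all higher, against 14.4% over all tested genes. Col6a5 had the highest value, 0.91 ± 0.23 SE (edgeR, adjusted p = 0.085), and Col15a1 and Col6a6 had 0.34 and 0.58. Col6a4 had -0.61, and Col6a3 had a log2FC of -0.22 ± 0.23 SE (adjusted p = 0.69).

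Col18a1, whose product is a basement membrane collagen and the source of endostatin, had 6.87, 6.57, 13.4, 12.6 and 13.7 CPM in WT and 5.52, 6.72, 11.2, 5.70 and 12.5 CPM in Dp1Tyb. The mice fell into a lower set of 5 and a higher set of 5, which held both genotypes. The mice with more choroid plexus markers had more Col18a1: the 5 higher mice had a mean marker level of 6.32 to 6.84 on the log2(CPM + 0.1) scale, and the 5 others one of 1.11 to 5.51. The log2FC was -0.36 ± 0.27 SE (edgeR, adjusted p = 0.566), and 0.02 ± 0.16 SE (adjusted p = 0.977) with the markers as a covariate. Without the 3 libraries low in these markers it was -0.20 ± 0.24 SE (adjusted p = 0.793), and leaving out single mice gave -0.55 to -0.24, with the lowest value without Dp1Tyb replicate 5 and the highest without Dp1Tyb replicate 1. Umodl1, an olfactory protein with a uromodulin-like domain, had 2.49, 1.997, 2.77, 1.97 and 2.10 CPM in WT and 3.07, 2.87, 2.32, 2.55 and 2.51 CPM in Dp1Tyb. The genotypes overlapped (log2FC 0.25 ± 0.14 SE, adjusted p = 0.426). Itgb2, the beta-2 integrin chain of microglia and other leukocytes, had 5.78 ± 0.837 and 5.49 ± 1.33 CPM (SD, n = 5 mice each), beside a summed level of 6 microglia markers of 225 to 247 CPM in WT and 178 to 241 CPM in Dp1Tyb. Its lowest mouse, Dp1Tyb replicate 3 at 3.999 CPM, was also the lowest for these markers. Icosl, a costimulatory ligand of T cells, and Lrrc3 had log2FC values of 0.18 ± 0.12 SE and 0.05 ± 0.13 SE.

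**Figure D3:**
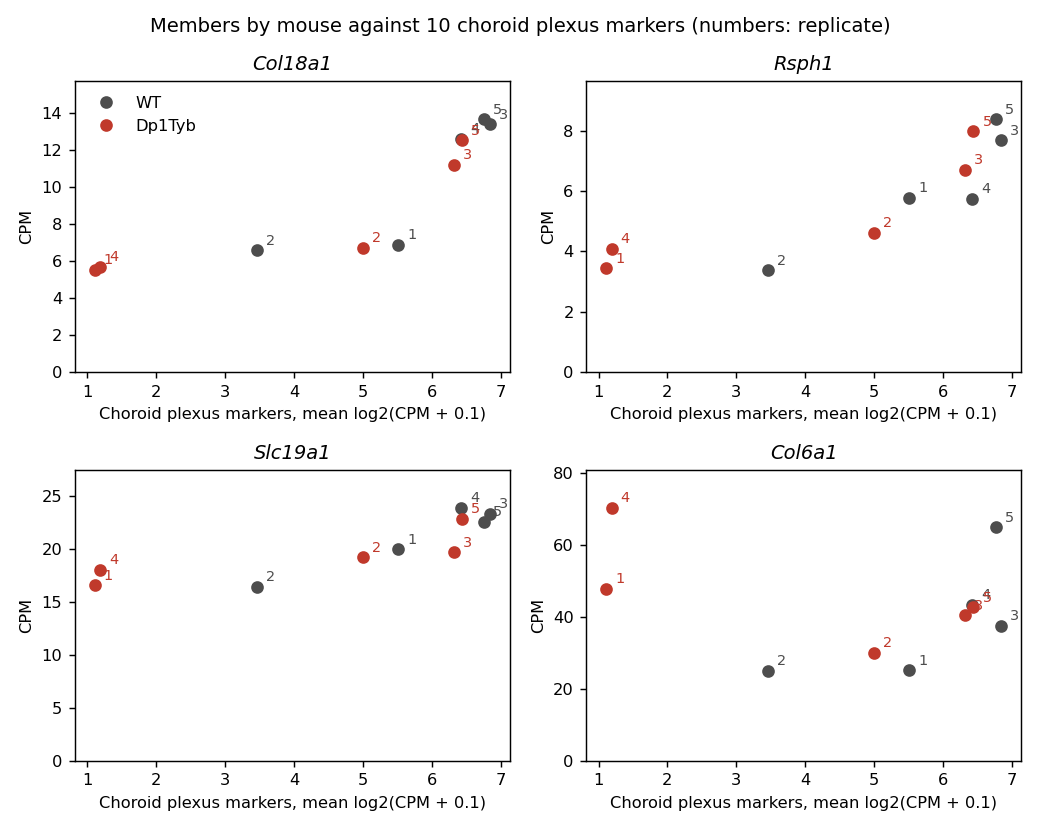
CPM (y axes, from 0) of Col18a1, Rsph1, Slc19a1 and Col6a1 in each mouse against the mean log2(CPM + 0.1) of 10 choroid plexus markers (x axes), with replicate numbers beside the points. Col18a1, Rsph1 and Slc19a1 are higher in mice of both genotypes with more marker RNA, and Col6a1 is highest in Dp1Tyb replicate 4, which has a marker level of 1.19.

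The remaining orthologs belong to transcription, the centrosome, the cilium and protein handling. Rsph1, a radial spoke protein of motile cilia, had 5.78, 3.37, 7.70, 5.75 and 8.39 CPM in WT and 3.44, 4.62, 6.72, 4.09 and 7.99 CPM in Dp1Tyb. The genotypes covered the same range, and the mice with the least Rsph1, WT replicate 2 and Dp1Tyb replicates 1 and 4, were those with the lowest choroid plexus markers. The log2FC was -0.22 ± 0.26 SE (edgeR, adjusted p = 0.725), 0.14 ± 0.15 SE with the markers as a covariate and -0.10 ± 0.19 SE without the 3 libraries. Leaving out single mice gave -0.40, without Dp1Tyb replicate 5, to -0.086, without Dp1Tyb replicate 1. It was also -0.38 without WT replicate 2, and -0.13, -0.087 and -0.14 without WT replicate 3, WT replicate 5 and Dp1Tyb replicate 4. Of 6 other markers of ependyma and cilia none was called. Their summed level, to which Foxj1 gave the most, was 19.5 to 36.7 CPM in WT and 19.8 to 35.4 CPM in Dp1Tyb. Of the 6, 4 had values above 0 and 2 below, the lowest at -0.11, and their median log2FC was 0.29. An unadjusted p under 0.05 was reached by 3 (50%), all higher, against 14.4% over all tested genes: Tmem212 had 0.76, Ccdc153 had 0.61 and Rarres2 had 0.53. The part of these markers in the Rsph1 values was not tested. Pcnt, the scaffold protein pericentrin of the centrosome, had 39.2, 43.2, 46.6, 45.4 and 40.2 CPM in WT and 34.3, 39.0, 36.8, 40.8 and 39.8 CPM in Dp1Tyb. The Dp1Tyb mean was below the WT mean, the genotypes overlapped, and the test was not passed (log2FC -0.17 ± 0.062 SE, edgeR, adjusted p = 0.242). Pknox1, a homeodomain factor and partner of the Pbx proteins, had 14.0 ± 1.09 and 13.9 ± 0.645 CPM (SD, n = 5 mice each).

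The 5 orthologs for protein modification, turnover and traffic had log2FC values between -0.083 and 0.0013. Sumo3, a small modifier that is conjugated to proteins, had 96.0 ± 3.73 CPM in WT against 92.2 ± 6.82 CPM in Dp1Tyb (SD, n = 5 mice each), with a 95% interval from 0.891-fold to 1.03-fold. Ube2g2, a ubiquitin-conjugating enzyme of endoplasmic reticulum quality control, had the lowest value of the 5 (-0.08 ± 0.049 SE, edgeR, adjusted p = 0.466). Cstb, cystatin B, an inhibitor of cathepsins whose loss in people causes a progressive myoclonus epilepsy, had 13.2 ± 0.564 and 12.9 ± 1.53 CPM. Trappc10, a subunit of the TRAPP complex of vesicle traffic, had 119.0 ± 2.74 and 119.1 ± 4.90 CPM, and Pttg1ip, a binding partner of securin, had 63.8 ± 3.50 and 62.5 ± 1.25 CPM.

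Levels between genes were compared as RPKM, CPM divided by the exon length of the gene in kilobases. Of the 39 tested orthologs, 16 were at 10 RPKM or more and 3 were under 1 RPKM. Rrp1 was highest, with 83.2 ± 2.49 in WT and 87.5 ± 3.63 RPKM in Dp1Tyb (SD, n = 5 mice each). S100b followed with 54.9 ± 2.43 and 64.8 ± 3.33 RPKM, then Pfkl with 40.1 ± 1.94 and 44.4 ± 1.78 RPKM, and Agpat3 with 34.5 ± 0.970 and 35.6 ± 0.990 RPKM. These 4 levels were apart by more than their spread. Further down, Ube2g2 (17.3 ± 1.02 RPKM in WT), Pttg1ip (16.4 ± 0.903) and Pcbp3 (16.3 ± 1.41) were next to each other and differed by less than their SD. Cbs stood lower, at 4.63 ± 0.489 RPKM in WT and 3.55 ± 0.284 in Dp1Tyb. The lowest was Ubash3a, at 0.0736 RPKM in WT.

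**Figure D4:**
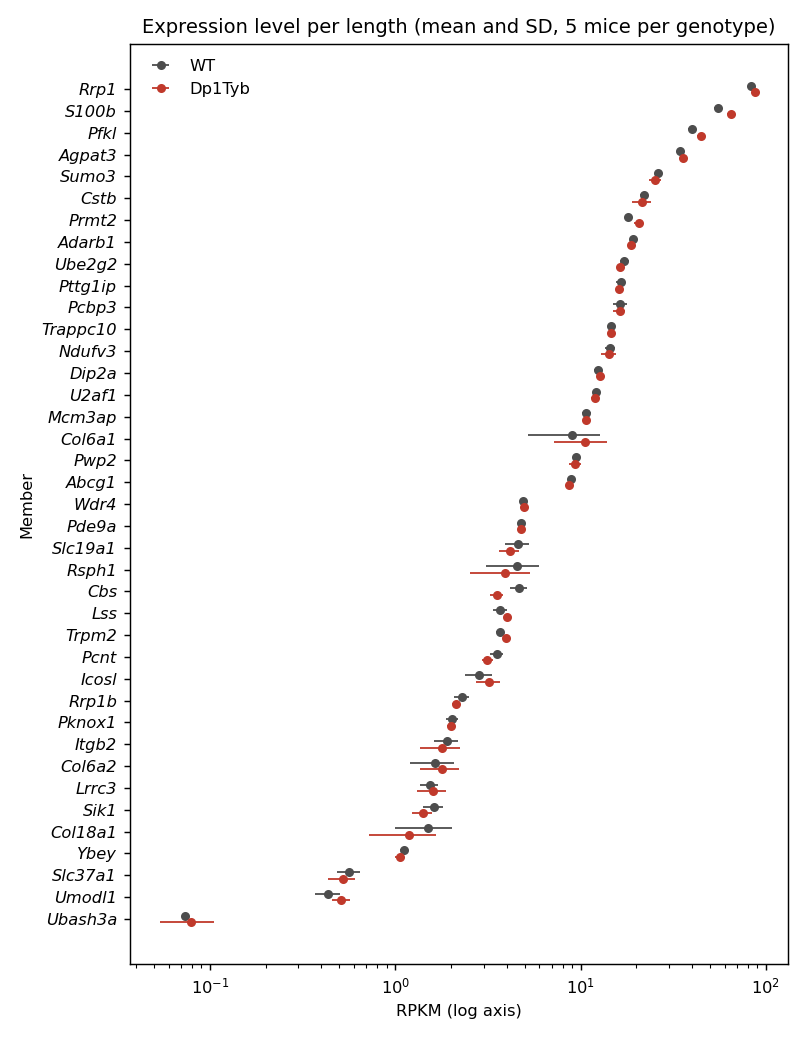
Level of the 39 tested orthologs in RPKM (x axis, log scale; mean and SD of 5 mice per genotype), ordered by the mean of both genotypes. Levels run from 0.0764 RPKM (Ubash3a) to 85.4 RPKM (Rrp1), and most pairs of points coincide.

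The genes that lie between the orthologs gave few further values. The segments hold 56 other genes of the count table, 43 on chromosome 10 and 13 on chromosome 17, among them Krtap12-1 and Krtap10-4, of the keratin-associated proteins, without any count. Only 8 were tested and none was called or had an unadjusted p under 0.05; their median log2FC was -0.034. Their values lay between -0.43 and 0.22. Beyond the segments, 85 paralogs and partners of the orthologs were read in 19 lists. Of these 1 was called, Hmgcs1, and 12 had an unadjusted p under 0.05 (14.1%). The list medians ranged from -0.085 for the salt-inducible kinases and their coactivators to 0.34 for the collagen VI and multiplexin chains, and the median of all 85 genes was 0.011.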

How the data were processed

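RNA was sequenced from the hippocampus of 5 Dp1Tyb and 5 WT mice, grouped by the genotype in their titles, with stranded poly(A) libraries read as paired ends. According to the study's methods and the submitters' processing notes, the authors trimmed adapters with TrimGalore, mapped reads to GRCm38 with TopHat 2.0.12, discarded reads with several alignments and deposited raw counts per Ensembl gene from htseq-count. The annotation release and the strand setting are not given in the sources used here. Discarding such reads lowers the counts of genes with near-identical copies. The authors' normalized counts and their DESeq2 comparison (version 1.6.3; means, log2 fold changes, p-values) were not used.

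Genes were named from GENCODE M21 (GRCm38): 42462 of 43629 IDs were found there, and 0.103% of the counts lay in the rest. All genes kept by filterByExpr (17237) were tested with edgeR 4.0.16 in R 4.3.3 (quasi-likelihood F-test, TMM, all 10 samples, no covariate, Benjamini-Hochberg over all tested genes, threshold 0.05). Each SE was derived from the F statistic, and 95% intervals from its moderated degrees of freedom. RPKM used the exon length of each gene, and marker levels a pseudocount of 0.1 CPM. The scripts were tested on simulated data. Alternatives were DESeq2 1.42.0, limma-voom (limma 3.58.1), RLE factors, no filter, a replicate block, a choroid plexus covariate and leaving out each mouse. The orthologs and lists were chosen with earlier results of these data known. Values were given by mouse for orthologs with p under 0.05 before or after adjustment, without overlap between genotypes, among the 3 largest changes in each direction, or among the 3 highest in RPKM; Col6a2 was added after its values were seen. Precision is limited by 5 mice per genotype and by depth for genes with few counts. Counting error alone does not cover differences between mice.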

Additional observations from a re-analysis of the deposited data

Results flagged for a closer look

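In 42 groups of 5 mice (11 orthologs, 9 marker lists and the median of the orthologs, in each genotype), the gap between the most distant mouse and its nearest neighbour was divided by the whole range. In 3 groups it was over 0.71, where chance, at about 1 in 20 groups, gives 2.1. Prmt2 was at 76.5 CPM in Dp1Tyb replicate 4, against 66.6 to 69.2 CPM in the other Dp1Tyb mice. Trpm2 was at 42.1 CPM in WT replicate 3, against 45.9 to 47.3 CPM in the other WT mice. The mean log2 level of the microglia markers was 4.40 in Dp1Tyb replicate 3, against 4.71 to 4.8 in the other Dp1Tyb mice.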

How the results depend on the processing

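DESeq2 called 4 of the orthologs (Cbs, Pfkl, Prmt2 and S100b), with 506 genes in all and 6 of the partner genes, and edgeR called 2, 191 and 1. DESeq2 also gave an unadjusted p for more genes, 28977 against 17237, and adjusted p after its own filter on mean counts. Limma-voom on the 17237 genes, and edgeR with no filter on low counts, called the same 2 orthologs as edgeR. With the replicate number as a block, 315 genes were called, among them the same 2 orthologs, S100b (adjusted p = 0.0121) and Cbs (adjusted p = 0.018), and 2 partner genes; with no filter on low counts 2 partner genes were called. Same-numbered mice had a correlation, in their deviations from the group means, from -0.067 to 0.28, over 0.1 in 3 of 5 pairs. Of the 5 WT mice, 1 correlated best with its own number. With the block the SE of Col18a1 was 0.15, against 0.27 without it. With 5 pairs, these values do not settle whether the numbers pair the mice. Leaving out each mouse gave 105 to 218 genes in all (0.609% to 1.25%), 0 to 2 orthologs, 0 to 2 partner genes, 62 to 67 duplicated genes, 6 to 9 orthologs with an unadjusted p under 0.05 and 35 to 38 with their interval under 1.5-fold. The share of all tested genes with an unadjusted p under 0.05 was 11.4% to 17% in these fits. It was 12.9% without WT replicate 3, where 9 of 39 orthologs had such a p. Without Dp1Tyb replicate 1 it was also 12.9%, with 6 of 39 orthologs. No ortholog was called without WT replicate 4 or Dp1Tyb replicate 1, 2 or 3. S100b was called in 12 and Cbs in 9 of 17 alternatives, each in the same direction in all 17. Leaving out the 3 libraries low in choroid plexus markers together, chosen after seeing the data, gave 108 genes, 1 ortholog (S100b) and 0 partner genes, and turned Col6a1 to -0.18. With the choroid plexus covariate Col18a1 turned to 0.02 and Rsph1 to 0.14. The median of the orthologs stayed within 0.04, the SD over the Dp1Tyb mice, under every alternative run.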
